A study of Homo sapiens with 40 samples.

Results

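The 10 epithelial integrin genes ITGA1, ITGA2, ITGA3, ITGA6, ITGAV, ITGB1, ITGB4, ITGB5, ITGB6 and ITGB8 were read by symbol from an RNA-seq count table of 62486 gene IDs, of which 17767 were abundant enough to test. All 10 passed that filter. They are 10 of the 26 integrin subunits looked up, and the other 16 are described after them. The table set 3 total RNA libraries labelled control (CT) against 3 labelled SETDB1 knockout (KO). Both come from A549, a lung adenocarcinoma cell line of human origin. SETDB1 is a methyltransferase that places H3K9me3, a histone mark of repressed chromatin. The knockout was made with CRISPR/Cas9, with the guide cloned into a plasmid, and the labels give both genotypes the same serum-containing medium with antibiotics and no other treatment. The labels do not say whether the KO cells came from a single clone, nor whether the libraries of a genotype came from separate cultures, so p-values measure the spread between these libraries, which may be technical. The series also holds ChIP-seq and Hi-C, which were not analysed here for these genes.

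Integrins are receptors made of an alpha and a beta subunit that span the membrane and tie the extracellular matrix to the cytoskeleton. ITGB1 pairs with many alpha subunits, among them the collagen receptors ITGA1 and ITGA2 and the laminin receptors ITGA3 and ITGA6, while ITGB4 pairs with ITGA6 alone and anchors hemidesmosomes, the junctions that hold epithelia to the basement membrane. ITGAV pairs with ITGB1, ITGB5, ITGB6 and ITGB8, and its dimers with ITGB6 and ITGB8 are known as activators of latent TGF-beta.

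Library totals ranged from 18065062 to 48364919 counts. Levels are given as CPM, the counts scaled to a common library size with edgeR's TMM factors, and they are compared between genotypes within a gene and not between genes, since no transcript length was used. SETDB1 itself was at 37.5, 39.6 and 38.7 CPM in control and 23.4, 21.2 and 21.1 CPM in KO, at -0.82 on the log2 scale of KO over control (edgeR adjusted p 1.7e-12), so transcript remained in the libraries labelled KO. Fold changes are KO over control, from edgeR's quasi-likelihood test with p-values adjusted by Benjamini-Hochberg over all genes tested, and a gene was called at an adjusted p under 0.05. By this rule 62.8% of all genes tested were called, 32.8% higher and 30.0% lower in KO. Of the integrin genes all 10 were called, 4 higher and 6 lower, with a median log2 fold change of -0.17 against 0.0038 over all genes tested. The CPM of the genotypes did not overlap for any of the 10, which held for 65.8% of all genes tested. Changes of at least 2-fold were called for 14.7% of genes, 9.86% higher and 4.85% lower, and for 3 integrin genes, ITGB8 and ITGB4 upward and ITGB6 downward.

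**Figure D1:**
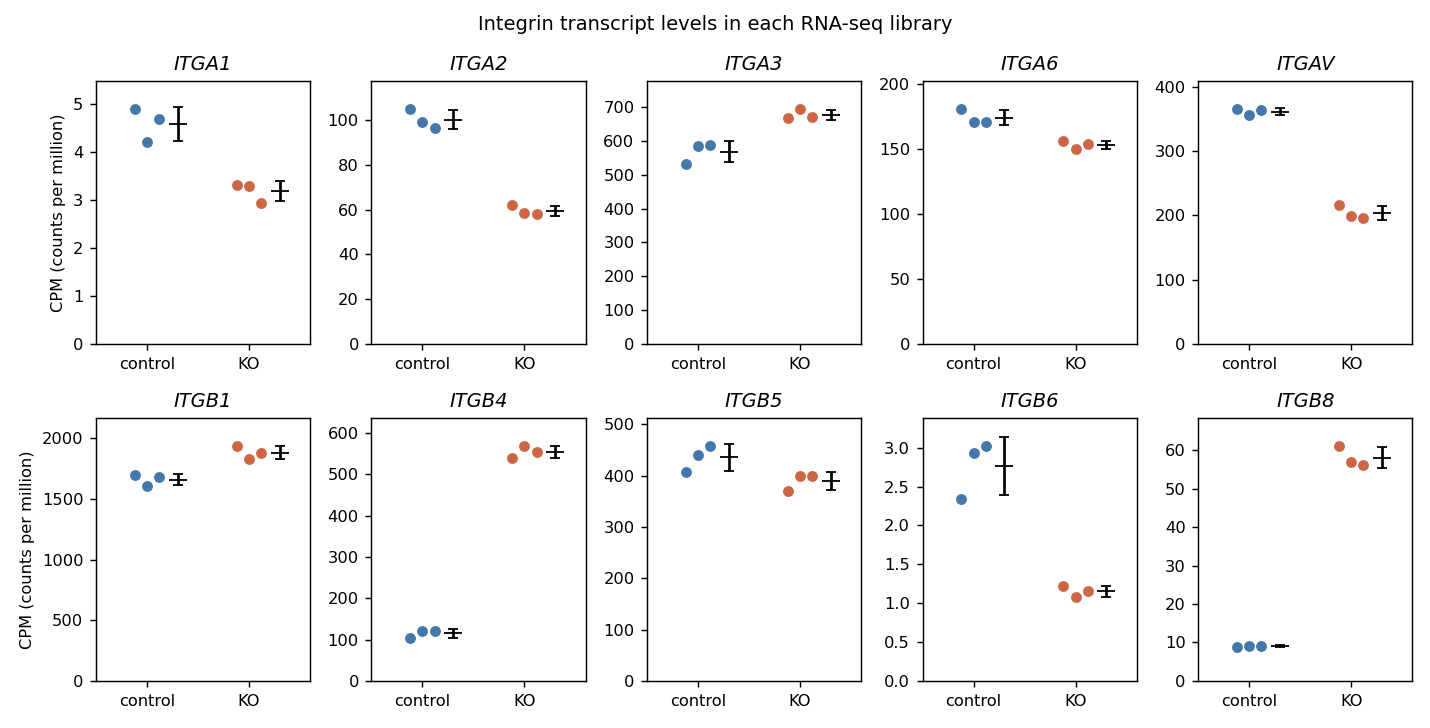
Transcript level in CPM (vertical axes, each starting at 0) of the 10 integrin genes in each of the 3 control and 3 KO libraries; points are libraries, and the mark beside them is the mean with its SD. ITGB4 and ITGB8 stood several-fold higher in KO, and the genotypes did not overlap in any panel.

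Both large rises were in beta subunits. ITGB4 (ENSG00000132470, chromosome 17), the hemidesmosome subunit, was at 103, 121 and 120 CPM in control and 540, 569 and 555 CPM in KO libraries. All KO libraries stood far above all control libraries, whose own spread was small beside the gap. In bulk RNA, fewer cells of a type and less RNA per cell cannot be told apart, here or below. The rise from 115 ± 9.96 to 555 ± 14.4 CPM (SD, n = 3) was 4.83-fold, 2.27 ± 0.051 on the log2 scale (SE; edgeR adjusted p 5.3e-22). ITGB8 (ENSG00000105855, chromosome 7), the subunit whose only partner is ITGAV, was at 8.88, 9.05 and 9.21 CPM in control and 61.1, 56.9 and 56.2 CPM in KO libraries. Control libraries spread by less than 1 CPM, and the lowest KO library was still several times the highest control library. The rise was 6.40-fold, 2.68 ± 0.065 on the log2 scale (SE; edgeR adjusted p 2.6e-23). The log2 fold change of ITGB4 was above that of 95.8% of all genes tested and that of ITGB8 above that of 96.6%.

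ITGA3 and ITGB1, which pair as a laminin receptor, rose by much less. ITGA3 (ENSG00000005884, chromosome 17) was at 531, 586 and 588 CPM in control and 666, 693 and 668 CPM in KO libraries, 0.25 ± 0.043 on the log2 scale (SE; edgeR adjusted p 1.3e-05). The control library of replicate 1 was the lowest, and all KO libraries lay above all control libraries. ITGB1 (ENSG00000150093, chromosome 10), the common beta subunit, was at 1696, 1607 and 1680 CPM in control and 1938, 1829 and 1878 CPM in KO libraries, 0.18 ± 0.040 on the log2 scale (SE; edgeR adjusted p 3.4e-04). The lowest KO library lay above the highest control library. The pseudogene ITGB1P1 can share reads with ITGB1, and it rose from 13.9 to 18.4 CPM (edgeR adjusted p 2.4e-04).

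ITGA1 and ITGA2, the alpha chains of collagen receptors, fell. ITGA2 (ENSG00000164171, chromosome 5) was at 105, 99.3 and 96.5 CPM in control and 62.0, 58.4 and 58.1 CPM in KO libraries, 59.4% of the control level, with -0.75 ± 0.048 on the log2 scale (SE; edgeR adjusted p 1.1e-13). ITGA1 (ENSG00000213949), its neighbour on chromosome 5, was at 4.88, 4.20 and 4.67 CPM in control and 3.32, 3.29 and 2.94 CPM in KO libraries, -0.52 ± 0.12 on the log2 scale (SE; edgeR adjusted p 5.6e-04). Its interval, -0.78 to -0.27, was wider than that of ITGA2, -0.85 to -0.65, and the intervals overlap. PELO, a ribosome rescue gene whose gene model overlaps that of ITGA1, fell from 48.0 to 39.2 CPM (log2 fold change -0.30, edgeR adjusted p 1.6e-05), and reads of the shared stretch cannot be assigned here.

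ITGAV (ENSG00000138448, chromosome 2), the alpha subunit of the RGD-binding receptors, was at 365, 356 and 363 CPM in control and 216, 199 and 196 CPM in KO libraries. The KO level was 56.3% of control, -0.83 ± 0.043 on the log2 scale (SE; edgeR adjusted p 9.95e-16), with a wide gap between the genotypes. ITGB6 (ENSG00000115221, chromosome 2), its TGF-beta-activating partner, was at 2.34, 2.93 and 3.02 CPM in control and 1.22, 1.08 and 1.16 CPM in KO libraries, the largest fall of the 10, with -1.28 ± 0.18 on the log2 scale (SE; edgeR adjusted p 3.8e-07). This rests on few reads, 55, 53 and 88 counts in control and 28, 53 and 26 counts in KO libraries. ITGB5 (ENSG00000082781, chromosome 3), the vitronectin receptor subunit, was at 408, 441 and 458 CPM in control and 369, 399 and 399 CPM in KO libraries, -0.16 ± 0.045 on the log2 scale (SE; edgeR adjusted p 0.0030). The lowest control and the highest KO library of ITGB5 lay close together. ITGA6 (ENSG00000091409, chromosome 2), the partner of ITGB4, was at 181, 171 and 171 CPM in control and 156, 150.3 and 154 CPM in KO libraries, -0.18 ± 0.042 on the log2 scale (SE; edgeR adjusted p 4.5e-04).

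Since ITGA6, ITGAV and ITGB6 lie on chromosome 2, whose genes were lower as a whole in KO, each integrin gene was set beside the other tested genes of its chromosome. The median log2 fold change of chromosome 2 was -0.54 over 1048 genes, while the medians of the other 5 chromosomes that hold members lay between -0.062 and 0.056. ITGA6 stood 0.36 above its chromosome's median and 0.45 above the median of the 25 placed genes on either side, and 77.2% of chromosome 2 genes had a lower fold change. ITGAV stood lower than both, at -0.29 from the median of chromosome 2 and -0.39 from that of its neighbours. ITGB6 stood lower still, at -0.74 and -0.69. When libraries were scaled on the genes of chromosome 2 alone, ITGA6 was higher in KO, with 0.34 ± 0.039 on the log2 scale (SE; edgeR adjusted p 6.3e-08), ITGAV was lower at -0.30 (SE 0.040, edgeR adjusted p 6.6e-07) and ITGB6 lower at -0.75 (SE 0.18, edgeR adjusted p 5.6e-04). The direction given for ITGA6 therefore depends on whether it is read against all genes or against its own chromosome. Off chromosome 2, ITGB5 lost its call when scaled on chromosome 3 (-0.10, edgeR adjusted p 0.093), and the other 6 genes kept theirs.

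**Figure D2:**
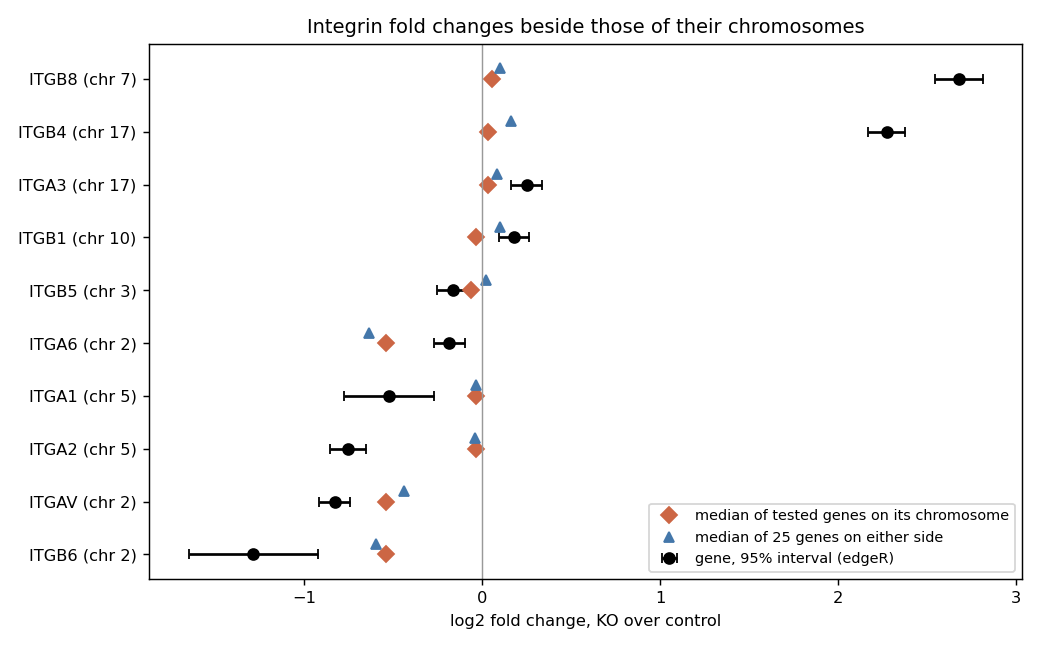
Log2 fold change, KO over control (horizontal axis), of each integrin gene with its 95% interval, beside the median of the tested genes on its chromosome and that of the 25 placed genes on either side. The medians of chromosome 2 lie near -0.54, between ITGA6 at -0.18 and ITGAV at -0.83.

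ITGB4 stood 2.11 above the median of the 50 tested genes around it, and 100% of them had a lower fold change. GALK1, a galactose kinase gene whose model overlaps ITGB4, had a log2 fold change of -0.24 (edgeR adjusted p 0.0096), and SAP30BP on the other side -0.022 (edgeR adjusted p 0.72). ITGB8 stood 2.58 above the median of its neighbours, of which 94% had a lower fold change. Its nearest tested coding neighbours were at -0.053 for POLR1F (edgeR adjusted p 0.42) and -0.62 for SP4 (7.3e-09). Genes under the filter were passed over in this order. ITGB8-AS1, the antisense gene at its start, went from 2, 2 and 4 counts in control to 14, 35 and 12 counts in KO. It passed the filter on low counts only through the KO libraries, so no fold change or test is given. The strand setting of the counting is not given in the sources used here, so reads of ITGB8 and ITGB8-AS1 cannot be told apart. ITGB1-DT, a long noncoding gene beside ITGB1, rose from 11.5 ± 0.64 to 26.5 ± 1.49 CPM (SD, n = 3; log2 fold change 1.20, edgeR adjusted p 2.1e-14), more than ITGB1 itself. ITGA2-AS1, with 1 to 6 counts a library, ITGA6-AS1 and ITGB5-AS1 fell under the filter. The genes named in this paragraph were chosen after their values were seen.

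Because a surface integrin needs both chains, the log2 ratio of alpha to beta transcript was taken in each library for the 9 pairs of these genes known to form heterodimers. An exact two-sided permutation test of 3 libraries against 3 cannot go below 0.10, and no pair could pass 0.05. The ITGAV to ITGB8 ratio moved most, from 5.28, 5.22 and 5.23 in control to 1.82, 1.80 and 1.79 in KO, a difference of -3.44 (SE 0.021, exact permutation p 0.10, adjusted 0.13 over 9 pairs). The ratio fell to 9.19% of its control value. The ITGA6 to ITGB4 ratio followed, from 0.80, 0.50 and 0.51 to -1.79, -1.92 and -1.85, a difference of -2.45 (SE 0.11, exact permutation p 0.10, adjusted 0.13), or 18.3% of control. In both pairs the beta chain rose and the alpha chain fell, except that ITGA6 rose when scaled on chromosome 2.

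With ITGB1 as the partner, the ratio fell by 1.01 for ITGAV, by 0.93 for ITGA2, by 0.64 for ITGA1 and by 0.36 for ITGA6, and the genotypes did not overlap in any of these. The ratio of ITGAV to ITGB5 fell by 0.67, again without overlap. With 0.5 CPM added to each level, the genotypes overlapped for 2 pairs. ITGA3 to ITGB1 differed by 0.072 (SE 0.077, exact permutation p 0.50) and ITGAV to ITGB6 by 0.15 (SE 0.11, exact permutation p 0.40). The values of ITGAV to ITGB6 were 7.01, 6.70 and 6.69 in control and 6.98, 6.99 and 6.89 in KO libraries, and the difference ranged from 0.094 without control replicate 3 to 0.25 without control replicate 1. It was 0.36 with a pseudocount of 0.1 in place of 0.5 CPM and turned to -0.23 with 2 CPM (ITGB6 itself was at 1.08 to 3.02 CPM). The size and direction of this difference thus depend on the amount added. In edgeR the log2 fold changes were -0.83 for ITGAV and -1.28 for ITGB6. The pairs share subunits and are not independent of each other. Nor were the ratios scaled by chromosome. ITGAV, ITGA6 and ITGB6 lie on chromosome 2, whose median was -0.54, so the other ratios with ITGAV or ITGA6 include that shift. Its share in them was not tested. From the medians of their own chromosomes, ITGAV stood at -0.29, ITGA6 at 0.36, ITGB1 at 0.21, ITGB5 at -0.10, ITGB4 at 2.24 and ITGB8 at 2.62.

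**Figure D3:**
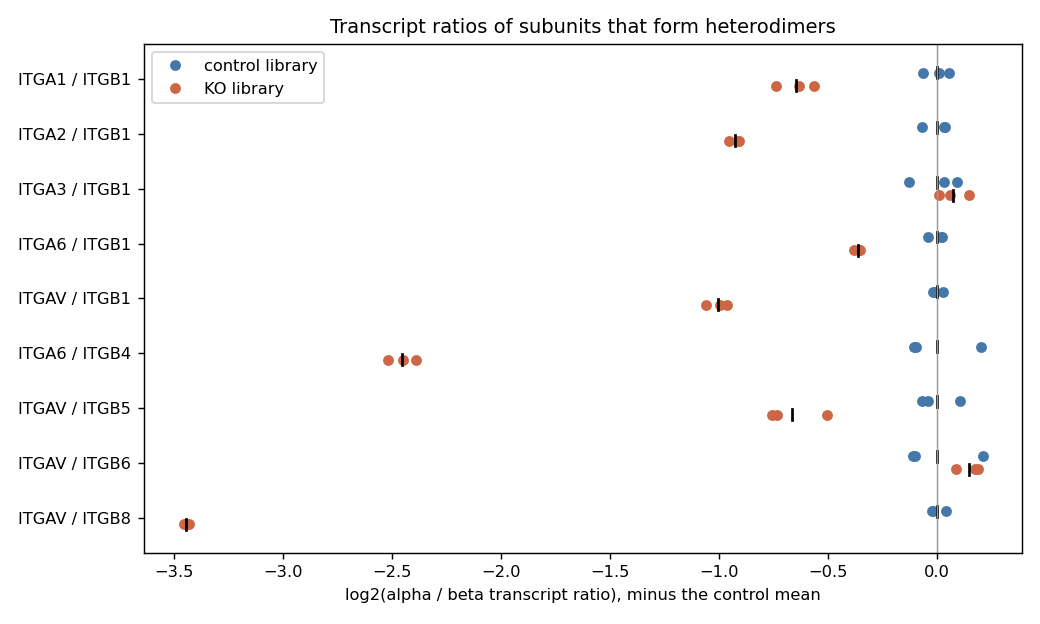
Log2 ratio of alpha to beta transcript in each library, minus the control mean of the pair (horizontal axis), for 9 pairs of subunits that form heterodimers; points are libraries and black ticks are means. KO libraries lie left of control for 7 pairs, farthest for ITGAV with ITGB8 at -3.44, and overlap control for ITGA3 with ITGB1 and ITGAV with ITGB6. Ratios were not scaled for the lower level of chromosome 2, where ITGAV, ITGA6 and ITGB6 lie. They have 0.5 CPM added to each level, which is large beside ITGB6 at 1.08 to 3.02 CPM.

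RefSeq promoter sequences, 250 bases before to 50 after a start on GRCh38.p14, matched 8 of the 10 genes. Those of ITGAV and its TGF-beta-activating partners are shown because ITGB8 rose while ITGAV and ITGB6 fell. Capitals mark matches, on either strand, to GGGCGG (the GC box), TGANTCA (AP-1), CACCTG (an E-box), GGAATG (TEAD) and TATAAA (the TATA box).
ITGB8, chr7:20330650-20330949, plus strand: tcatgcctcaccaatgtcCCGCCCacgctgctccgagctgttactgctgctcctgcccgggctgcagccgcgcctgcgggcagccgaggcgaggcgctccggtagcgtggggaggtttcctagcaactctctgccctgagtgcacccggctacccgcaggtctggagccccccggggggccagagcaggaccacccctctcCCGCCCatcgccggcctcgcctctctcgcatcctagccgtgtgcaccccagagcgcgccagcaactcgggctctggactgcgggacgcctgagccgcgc
ITGAV, chr2:186589806-186590105, plus strand: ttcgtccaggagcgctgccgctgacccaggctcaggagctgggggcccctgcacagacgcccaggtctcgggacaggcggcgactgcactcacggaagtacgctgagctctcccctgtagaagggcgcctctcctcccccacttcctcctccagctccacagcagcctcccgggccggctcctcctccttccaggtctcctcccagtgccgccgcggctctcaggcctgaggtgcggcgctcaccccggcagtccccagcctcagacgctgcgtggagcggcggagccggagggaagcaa
ITGB6, chr2:160200223-160200522, minus strand: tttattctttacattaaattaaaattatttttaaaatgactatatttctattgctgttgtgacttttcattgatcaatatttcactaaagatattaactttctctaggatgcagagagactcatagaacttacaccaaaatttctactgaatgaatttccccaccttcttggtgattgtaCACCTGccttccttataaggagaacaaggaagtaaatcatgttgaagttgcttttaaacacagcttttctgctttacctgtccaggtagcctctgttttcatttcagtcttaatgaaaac

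The ITGB8 window held 28 CpG dinucleotides at 71.7% GC, and the ITGAV window, at the first of 2 starts listed, held 23 at 70.7% GC. The ITGB6 window held 0 at 31.7% GC. The medians over all 35116 windows were 14 CpG and 58.7% GC. Counting the start base as 1, ITGB8 had GC boxes beginning at -232 and -49, both on the reverse strand, a motif found in 45.0% of all windows. ITGB6 had an E-box at -70, found in 20.6%, and ITGAV had none of the 5 motifs. Over the first listed starts of the 8 genes, 5 held a GC box, 2 the E-box, 1 the TEAD motif, 1 the TATA box and 0 the AP-1 motif. These last motifs were in 14.0%, 11.5% and 7.71% of all windows. Matches describe these letters only, and no match says only that they are not in this window.

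Of the other 16 integrin subunits, 13 were tested, 2 rose and 6 fell, with a median log2 fold change of -0.40. The share called was 61.5%, near the 62.8% of all genes tested (32.8% higher, 30.0% lower). No list, here or below, was tested as a set. ITGA11, a fibrillar collagen receptor chain, was at 16.1, 16.8 and 14.6 CPM in control and 4.98, 5.52 and 4.77 CPM in KO libraries, -1.60 ± 0.091 on the log2 scale (SE; edgeR adjusted p 7.6e-15). ITGAE, the chain that binds E-cadherin, fell from 26.2 ± 1.71 to 18.4 ± 0.21 CPM (SD, n = 3; log2 fold change -0.50, edgeR adjusted p 1.3e-07). The 2 that rose were beta and alpha chains of leukocytes, and they are named after their values were seen. ITGB2 rose from 20, 14 and 21 counts to 213, 449 and 196 counts, 3.53 ± 0.15 on the log2 scale (SE; edgeR adjusted p 5.4e-18), and ITGAX rose from 0.89 to 2.77 CPM. ITGAM, another partner of ITGB2, fell from 4.21 to 1.57 CPM. The antisense gene ITGB2-AS1 rose from 0.67 to 3.30 CPM, and its reads cannot be told apart from those of ITGB2. PTPRC, which defines leukocytes, had 1, 1 and 0 counts in control and 0 in every KO library, and CD3E had 0 throughout. The third haematopoietic marker, CD14, was present in every library, at 5.68 CPM in control and 4.76 CPM in KO (log2 fold change -0.24, edgeR adjusted p 0.070).

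Among 32 matrix ligands, 29 were tested, 17 rose and 10 fell, with a median log2 fold change of 0.37. The share called was 93.1%, against 62.8% of all genes tested. FN1, the fibronectin bound by ITGAV receptors, was at 486, 475 and 453 CPM in control and 84.1, 78.6 and 81.6 CPM in KO libraries, -2.54 ± 0.045 on the log2 scale (SE; edgeR adjusted p 2.3e-26). FN1 also lies on chromosome 2. LAMB3, a chain of the epithelial laminin bound by ITGA3 and ITGA6 receptors, rose from 13.9, 16.0 and 16.6 CPM to 58.1, 59.4 and 58.0 CPM (log2 fold change 1.92, SE 0.062, edgeR adjusted p 2.1e-20). LAMA3, another laminin chain, fell from 120 ± 4.46 to 53.8 ± 1.97 CPM (SD, n = 3; log2 fold change -1.15, edgeR adjusted p 5.6e-18). COL4A6, a basement membrane collagen chain, fell from 103 ± 5.25 to 32.0 ± 0.89 CPM (SD, n = 3), and all 6 collagen IV genes fell, with log2 fold changes of -1.22 for COL4A1, -0.69 for COL4A2, -0.54 for COL4A3, -0.46 for COL4A4, -0.42 for COL4A5 and -1.68 for COL4A6. COL4A3 and COL4A4 lie on chromosome 2, whose median was -0.54. TNC, a matrix protein of remodelling tissue, rose from 2.72 to 8.84 CPM (log2 fold change 1.71, edgeR adjusted p 2.8e-13). NPNT and EDIL3, both RGD-bearing ligands, had 2 counts over the control libraries against 361 and 292 over the KO libraries. Both passed the filter on low counts only through the KO libraries, so no ratio or test is given. COL3A1, with 8, 5 and 10 counts in control and 12, 44 and 27 counts in KO, passed the filter in the same way. NPNT, EDIL3 and COL3A1 are among the 17 ligands counted as risen and enter the median of the list. LAMA3, the collagen genes other than COL4A6, NPNT and EDIL3 were named after their values were seen.

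Of the 7 genes listed for latent TGF-beta, 6 were tested, 4 rose and 1 fell, with a median log2 fold change of 0.25. The share called was 83.3%, against 62.8% of all genes tested. LTBP3, which tethers latent TGF-beta to the matrix, rose from 48.3, 58.8 and 60.6 CPM to 140, 154 and 140 CPM (log2 fold change 1.37, SE 0.073, edgeR adjusted p 1.5e-09). LTBP4 rose from 50.6 to 60.7 CPM (edgeR adjusted p 0.021), a call lost without KO replicate 2 (0.079) or KO replicate 3 (0.072). TGFB2 rose from 78.6 to 92.2 CPM, and LTBP1, on chromosome 2, fell from 33.9 to 31.1 CPM (edgeR adjusted p 0.043). The call of LTBP1 was lost with DESeq2 (adjusted p 0.10), and without control replicate 3 (adjusted p 0.22), KO replicate 2 (0.18) or KO replicate 3 (0.087), so that the number lower was then 0. TGFB1 was at 35.2 CPM in control and 35.4 CPM in KO (log2 fold change 0.013, edgeR adjusted p 0.87). TGFB3 rose from 1.10 to 1.79 CPM (log2 fold change 0.69, edgeR adjusted p 0.0051). TGFB1 and TGFB3 were named after their values were seen.

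Among 41 activators and adaptors of adhesions, 40 were tested, 13 rose and 18 fell, with a median log2 fold change of -0.011. The share called was 77.5%, against 62.8% of all genes tested. DAB2, an endocytic adaptor, rose from 13.1 to 25.5 CPM (log2 fold change 0.96, edgeR adjusted p 1.4e-12) and TGFB1I1, a paxillin relative, from 16.2 to 30.1 CPM (0.90, edgeR adjusted p 2.1e-12). LIMS1, which binds integrin-linked kinase and lies on chromosome 2, fell from 99.9 to 51.9 CPM (log2 fold change -0.95, edgeR adjusted p 3.5e-16). TLN2, the second talin, fell from 38.6 to 20.0 CPM (log2 fold change -0.94, edgeR adjusted p 7.3e-14). TLN1, the main activator of integrins, rose from 388 to 415 CPM (log2 fold change 0.099, edgeR adjusted p 0.038), and PTK2, the focal adhesion kinase, fell from 136 to 123 CPM (log2 fold change -0.14, edgeR adjusted p 0.0050). APBB1IP, which links RAP1 to talin, fell from 139, 100 and 157 counts to 3, 6 and 1, and FYN, a Src-family kinase, from 76, 56 and 87 counts to 3, 20 and 10. APBB1IP and FYN passed the filter on low counts through the control libraries, so no fold change or test is given. They are among the 18 genes counted as fallen and enter the median of the list. TLN1, PTK2, APBB1IP and FYN were named after their values were seen.

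Of the 14 hemidesmosome and membrane partners, all 14 were tested, 9 rose and 2 fell, with a median log2 fold change of 0.47. The share called was 78.6%, against 62.8% of all genes tested. PLEC, the plectin that links ITGB4 to keratin, was at 778, 1063 and 1071 CPM in control and 1589, 1611 and 1490 CPM in KO libraries, 0.69 ± 0.14 on the log2 scale (SE; edgeR adjusted p 0.012). Control replicate 1 was the lowest, and the adjusted p was 0.057 with the replicate number as a block and 0.056 without KO replicate 2. COL17A1, the transmembrane collagen of hemidesmosomes, rose from 1.32, 1.38 and 1.13 CPM to 7.68, 7.47 and 6.10 CPM (log2 fold change 2.50, SE 0.15, edgeR adjusted p 1.9e-14). DST, the other plakin, rose from 508 to 581 CPM (edgeR adjusted p 0.026) and CD151, the tetraspanin of laminin-binding integrins, from 195 to 264 CPM (edgeR adjusted p 8.7e-09). CD82, a tetraspanin, rose from 1.71 to 10.0 CPM (log2 fold change 2.55, edgeR adjusted p 6.5e-16), CD63 from 176 to 368 CPM (1.06, edgeR adjusted p 1.8e-18) and PLAUR, the urokinase receptor, from 17.7 to 27.4 CPM (0.62, edgeR adjusted p 9.9e-09). TSPAN8 had 0 counts in each control library and 464 over the KO libraries. It passed the filter on low counts only through the KO libraries, so no fold change or test is given. It is among the 9 partners counted as risen and enters the median of the list. The 2 that fell were CAV1, from 419 to 362 CPM (log2 fold change -0.21, edgeR adjusted p 5.2e-05), and CD47, from 65.9 to 60.4 CPM (-0.13, edgeR adjusted p 0.021). CD9, CD81 and SLC3A2 were not called. COL17A1, DST, CD151, TSPAN8, CAV1, CD47, CD9, CD81 and SLC3A2 were named after their values were seen. Of 8 trafficking genes, 6 were tested, 5 rose and 1 fell, with a median of 0.23. All 6 were called, against 62.8% of all genes tested. RAB21, an integrin recycling GTPase, rose from 77.0 to 101 CPM, RAB11FIP1 from 49.4 to 62.0 CPM and NUMB from 33.9 to 41.3 CPM, while SNX17, which returns integrins to the surface and lies on chromosome 2, fell from 147 to 110 CPM. At -0.42 and -0.13 on the log2 scale, SNX17 and LTBP1 fell by less than the chromosome 2 median of -0.54.

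**Figure D4:**
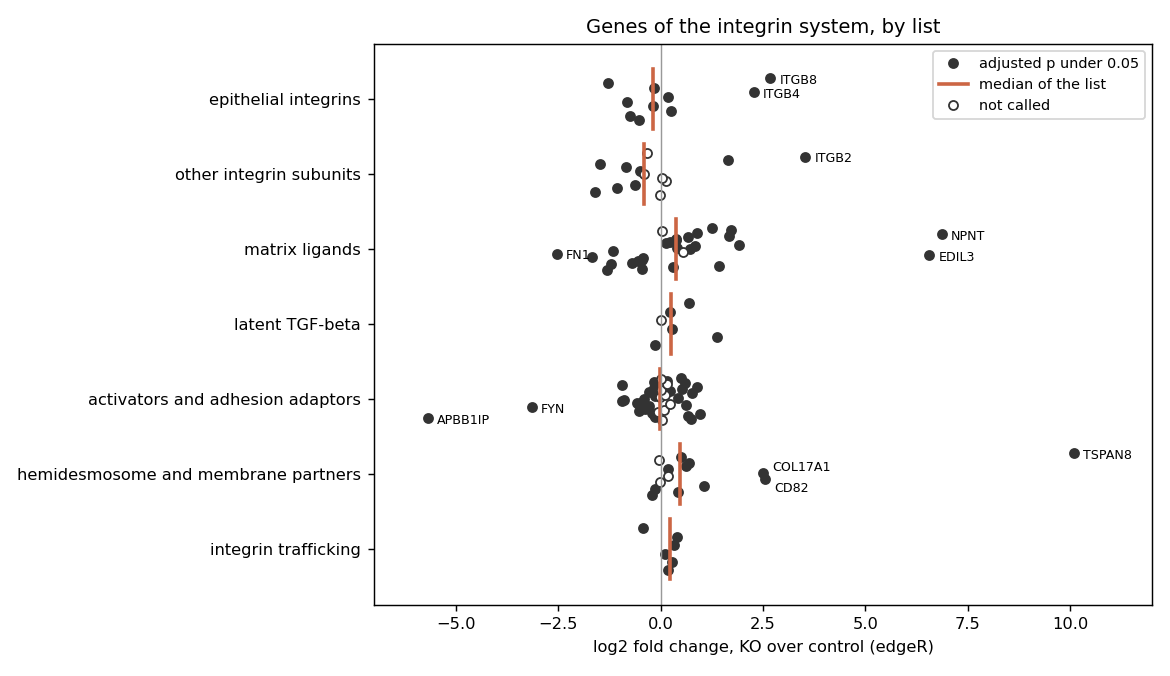
Log2 fold change, KO over control (horizontal axis), of each tested gene by list; filled points were called at an adjusted p under 0.05, open points were not, and bars are medians. ITGB8 and ITGB4 lie at 2.68 and 2.27 in a list whose median is -0.17, and FN1 lies at -2.54 among the ligands. The fitted values of TSPAN8, NPNT and EDIL3 depend on the prior count, since control counts were 0 to 2 in all. These genes passed the filter on low counts only through the KO libraries. COL3A1 passed it in the same way, and APBB1IP and FYN passed it through the control libraries.

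The labelled cell type was checked on marker genes. All 6 epithelial markers (KRT7, KRT8, KRT18, KRT19, EPCAM, CDH1) were higher in KO, against 32.8% of all genes tested. Their log2 fold changes ran from 0.10 for KRT7 (edgeR adjusted p 0.039) to 2.49 for KRT19. Their summed level was 4460 to 4883 CPM in control and 10821 to 11625 CPM in KO libraries. Most of that rise was in KRT8 (2271 to 6594 CPM) and KRT18 (779 to 2583 CPM). The sum moved with ITGB4 and ITGB8, and its part in their rise was not tested. Of 6 alveolar type II markers only ABCA3 passed the filter, at 64.7 CPM in control and 83.3 CPM in KO. SFTPA1 had 0 counts throughout, and NKX2-1 had 0 in control and 1, 2 and 2 counts in KO. Of 3 fibroblast markers DCN was at 0 in all libraries, and COL1A1 was at 3.10 CPM in control and 3.83 CPM in KO. PDGFRA had 29, 26 and 36 counts in control and 2, 8 and 3 counts in KO. Of 3 endothelial markers VWF had 0 to 2 counts, CDH5 had 5, 5 and 11 counts in control and 87, 252 and 105 in KO, and PECAM1 matched no ID.

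By a rule of likeness (the smallest distance between centred log2 CPM profiles over the 6 libraries, among 10993 genes), the profiles nearest to ITGB8 were those of ZNF420, ZNF418 and C3, with log2 fold changes of 2.72, 2.80 and 2.64 and distances of 0.095, 0.096 and 0.11. Those nearest to ITGB6, itself at -1.28, were ADM, PCK2 and NCL, at -1.05, -1.05 and -0.96 on the log2 scale. The 0.5 CPM added to the profiles lessens the change of ITGB6, at 2.76 CPM in control and 1.15 CPM in KO. NCL also lies on chromosome 2. The distances from ITGB6 were 0.15, 0.16 and 0.16. With 2 genotypes these distances mostly compare the size of the change.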

How the data were processed

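The deposited table held whole-number counts per gene, not normalised, from libraries made with a stranded total RNA kit per the labels' protocols. STAR 2.6.1c and the build hg19 are named in the submitters' processing notes. How reads were assigned to genes, and whether strand was used, is not given in the sources used here, so genes that overlap on opposite strands are uncertain. A symbol was found for 93.8% of the 62486 gene IDs. Chromosome and gene order came from RefSeq on GRCh38.p14, used for names and order only, and 87.9% of tested genes were placed. Peak, domain and compartment files were not used here.

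The counts of all 6 libraries entered a robust quasi-likelihood fit in edgeR 4.0.16 (R 4.3.3) after filterByExpr and TMM, with genotype alone in the model and Benjamini-Hochberg adjustment. The SE is the log2 fold change over the root of F. Partner ratios used log2(CPM + 0.5) and exact permutation in scipy 1.17.1. Libraries of a genotype differed beyond sampling noise (chi-square per degree of freedom 1.65 to 6.81), so none was merged. Named genes were the 10 members, SETDB1, the genes found by likeness, and from each list the 4 largest changes with an adjusted p under 0.05 and a mean CPM of at least 5, or fewer where fewer passed. Other names are marked where they appear. The members and lists were chosen with earlier results of these data known. Alternatives were other scalings and filters, DESeq2 1.42.0, limma 3.58.1 (voom), a replicate block, leaving out each library, leaving out mitochondrial genes, and scaling on a member's own chromosome.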

Additional observations from a re-analysis of the deposited data

How the results depend on the processing

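Over 15 alternative fits (other scalings, filters and tools, the replicate block, each library left out), each of the 10 integrin genes kept its direction and its call, with ITGB5 closest to the threshold at an adjusted p of 0.043. Scaling on the genes of its own chromosome turned ITGA6 to 0.34 and took the call from ITGB5. With a pseudocount of 2 CPM the difference in the ITGAV to ITGB6 ratio turned to -0.23. Only the amount added differed from the main setting, and ITGB6 itself was at 1.08 to 3.02 CPM. The number of latent TGF-beta genes lower was 0 with library size only, without a filter on low counts, with DESeq2 and without mitochondrial genes, and 0 to 1 with each library left out. The number of hemidesmosome and membrane partners lower was 1 with library size only and without a filter, and 1 to 3 with each library left out.

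Distances from the neighbourhood median moved with its width. With 25 genes on either side they were -0.49 for ITGA1, -0.71 for ITGA2, -0.39 for ITGAV, 0.076 for ITGB1, -0.18 for ITGB5 and 2.58 for ITGB8. With 10 genes on either side they were -0.36 for ITGA1, -0.59 for ITGA2, -0.68 for ITGAV, 0.26 for ITGB1, -0.050 for ITGB5 and 2.48 for ITGB8, and with 50 genes -0.30 for ITGAV and 2.48 for ITGB8. With each library left out they ranged from 0.40 to 0.53 for ITGA6, -0.49 to -0.39 for ITGAV, 0.026 to 0.089 for ITGB1, -0.15 to -0.064 for ITGB5, -0.83 to -0.48 for ITGB6 and 2.49 to 2.62 for ITGB8.

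Replicate numbers were shared between genotypes, but same-numbered libraries deviated together only weakly (r = 0.17, 0.10 and 0.062), so the numbers were not taken to pair them. With the number as a block the median of the integrin genes was -0.17, and PLEC was at 0.70 with an adjusted p of 0.057. Depth limits ITGB6 and ITGA1 most, with as few as 26 and 66 counts in a library. Of 1003 values recomputed under alternatives, 963 were labelled as unchanged. For a gene this meant the same direction and call, and for a distance a move of less than the spread. Partner ratios could only change direction, since none could be called. Counts of genes were allowed some change. The member counts were labelled as unchanged even when scaling on their own chromosomes turned ITGA6 and took the call from ITGB5.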
